A study of Mus musculus with 8 samples.

Results

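The mitochondrial ribosomal protein genes were taken as all rows of the array table that the platform annotation gives exactly 1 symbol beginning with Mrpl or Mrps and a digit. They were 77 of the 19938 genes measured, 48 named for the large subunit and 29 for the small subunit. Each gene was represented by its brightest row over all 8 arrays, a choice that mattered for 8 genes with more than 1 row. The samples were primary mammary tumors, under 1 cm in diameter, of FvB mice with the MMTV-Neu genotype, in which the mouse mammary tumor virus promoter drives the Neu receptor in mammary epithelium. Every animal carried the transgene, so no array stands for normal mammary tissue. Flow sorting gave a fraction enriched for tumor-initiating cells (TIC) and a CD24-negative fraction (CD24-) of each tumor, and RNA of each was hybridised to an Affymetrix Mouse Gene 1.0 ST array. The TIC and CD24- arrays of tumors N251, N260 and N283 form 3 pairs, and cells of N222 and N229, mixed in equal parts, form the 4th pair. There were thus 4 arrays per fraction from 5 tumors. Which markers set the TIC gate was not known here.

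The mitochondrial ribosome translates the few messages encoded in mitochondrial DNA, all of them for subunits of the respiratory chain and the ATP synthase. Its ribosomal RNA comes from mitochondrial DNA, whereas its proteins are encoded in the nucleus, made in the cytosol and imported. Some of these proteins descend from bacterial ribosomal protein families and others have no bacterial counterpart. Mammary epithelial tumor cells and leukocytes both need them, so that none is a marker of a cell type.

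The 5′ flanks of the genes are shown first, because most of the genes differed in 1 direction and because promoters of nuclear genes for mitochondrial proteins are known for sites of NRF1, of ETS family factors such as GABP, and of YY1. Promoter sequences of RefSeq (build GRCm38.p6, 250 bases before to 50 after each start) were found for 68 of the 77 genes, 74 sequences in all. The letters GCGCA and GCGC with any 1 base between them, searched on both strands as the core of an NRF1 site, were in 17.6% of these sequences and in 6.91% of the 19177 promoters of measured genes (4.60% of all 32851 in the table). The letters CCGGAAG of an ETS site were in 33.8% against 12.1% (8.86% of all). The letters AAGATGGC of a YY1 site were in 16.2% against 3.18% (2.75% of all). At least 1 of these matches was in 56.8% of the sequences, against 19.9% for measured genes and 14.7% for all. The TATA letters TATAAA were in 6.76% against 11.5%. A match is a run of letters and not evidence of binding, and none of these runs contains another.

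The upstream 250 bases of 3 genes are printed 5′ to 3′ along the gene, those of the gene with the smallest p-value in each subunit and of the gene with the lowest difference. Capitals mark an ETS match, found in Mrps27 alone of these.
Mrpl42, chr10:95501950-95502199, minus strand: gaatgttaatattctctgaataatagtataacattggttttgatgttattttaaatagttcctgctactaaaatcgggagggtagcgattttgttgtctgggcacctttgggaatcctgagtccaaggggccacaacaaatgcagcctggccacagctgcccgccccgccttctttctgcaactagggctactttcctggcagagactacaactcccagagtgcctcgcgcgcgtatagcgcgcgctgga
Mrps27, chr13:99344536-99344785, plus strand: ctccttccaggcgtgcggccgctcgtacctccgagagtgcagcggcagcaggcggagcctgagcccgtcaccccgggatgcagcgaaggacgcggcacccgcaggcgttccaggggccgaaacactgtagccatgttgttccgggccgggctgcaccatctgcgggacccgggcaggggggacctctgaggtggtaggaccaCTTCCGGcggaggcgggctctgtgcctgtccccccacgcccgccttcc
Mrpl41, chr2:24975099-24975348, minus strand: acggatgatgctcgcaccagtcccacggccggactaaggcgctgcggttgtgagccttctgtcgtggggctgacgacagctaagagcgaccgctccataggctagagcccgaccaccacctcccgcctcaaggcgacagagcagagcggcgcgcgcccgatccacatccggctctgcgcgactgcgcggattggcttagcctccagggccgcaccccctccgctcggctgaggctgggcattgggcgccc

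The YY1 match stood in 12 of the 68 genes, and in 8 of these after the annotated start. Windows of at most 30 bases around it are printed for 6 of those 8, read along the strand that holds the match, with the match in capitals.
Mrpl42, chr10:95501904-95501933, minus strand: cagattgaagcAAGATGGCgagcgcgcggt
Mrpl35, chr6:71823743-71823772, minus strand: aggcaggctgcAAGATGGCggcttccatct
Mrpl49, chr19:6057721-6057750, minus strand: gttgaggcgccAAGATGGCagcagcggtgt
Mrps27, chr13:99344789-99344818, plus strand: tggtgcgctccAAGATGGCggctcccatgg
Mrps18a, chr17:46111004-46111033, plus strand: aggtgcgttccAAGATGGCggccctcaggg
Mrps7, chr11:115604147-115604176, plus strand: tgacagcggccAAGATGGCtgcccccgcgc

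The NRF1 match stood in 13 of the 68 genes, 10 of 47 sequences of the large subunit and 3 of 27 of the small subunit. In the 3 windows below the match in capitals is its own reverse complement.
Mrpl32, chr13:14613105-14613134, minus strand: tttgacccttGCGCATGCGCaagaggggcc
Mrpl39, chr16:84735350-84735379, minus strand: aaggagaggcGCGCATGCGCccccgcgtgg
Mrpl9, chr3:94443298-94443327, plus strand: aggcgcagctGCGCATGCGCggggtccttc

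The median TIC minus CD24- difference was 0.20 log2 units for the 13 genes with the NRF1 match and 0.21 for the 55 without it. It was 0.22 for the 25 genes with the ETS match and 0.20 for the 43 without, and 0.22 for the 12 with the YY1 match and 0.20 for the 56 without. Genes with and without these letters had close medians, and no test was made. A divergent neighbour, a gene on the other strand whose annotated start lay within 1000 bases upstream, was found for 26 of the 68 genes (38.2%), against 14.4% of 15614 measured genes. 1 such pair joined members of both subunits, Mrpl46 and Mrps11. Of the 24 measured neighbours, counting Mrpl46 and Mrps11, 18 had a difference above 0. The share above 0 was 59.5% of all genes and 69.2% of the genes at or above the median level. The neighbour with the highest difference was Ska3, which acts at the mitotic spindle, at 1.06, beside 0.22 for Mrpl57. The neighbour with the lowest was Pnpla7, at -0.82, beside -0.09 for Mrpl41.

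Transcripts of both subunits were slightly more abundant in the TIC fraction than in the CD24- fraction, and 0 of the 77 genes passed the test. The mean difference over the 4 pairs was above 0 for 73 of the 77, 47 of 48 in the large and 26 of 29 in the small subunit, where 59.5% of all genes were above 0. The median difference was 0.22 for the large subunit (SD over the pairs 0.15, n = 4) and 0.20 for the small subunit (SD 0.11), beside 0.04 for all genes. The members' quartiles were 0.12 and 0.29. After cyclic loess scaling the medians were 0.13 and 0.14, beside 0.0016 for all genes, and 61 of 77 members were above 0, against 50.4% of all genes. Without N251 the medians were 0.14 and 0.17. The distribution of the differences over the genes shows both subunits shifted to the right of all genes.

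**Figure D1:**
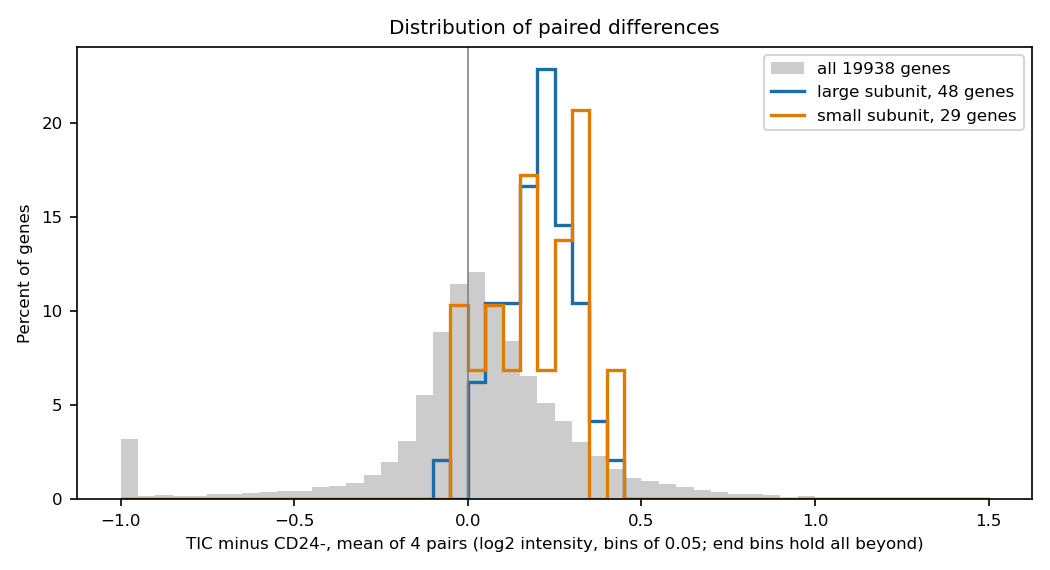
Percent of genes (y axis) by mean TIC minus CD24- difference over the 4 pairs (x axis, log2 intensity, bins of 0.05), for all 19938 genes (grey), the large subunit (blue) and the small subunit (orange). The medians were 0.04, 0.22 and 0.20, and the end bins hold all genes beyond them.

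The test was limma's moderated test with the tumor as a block, adjusted over all 19938 genes, and a gene was called at an adjusted p under 0.05. It called 1.96% of all genes (0.863% higher and 1.09% lower in the TIC fraction) and 0 of the 77 members. Without the block it called 0.792% of genes and 0 members. A random block for the tumor gave 5.2% of genes and 0 members. At an unadjusted p under 0.05, 26 members were higher (33.8%, background 14.2%) and 0 lower (background 8.08%). The count of higher members was 8 (10.4%) without N283, where the background was 10.1%, and 8 without N260, where it was 7.66%. It was 17 (22.1%, background 11.2%) without N251 and 12 (15.6%, background 9.20%) after cyclic loess. In other settings it was larger, at 38 (49.4%, background 18.7%) after median centring and 32 (41.6%, background 12.7%) without the pair of N222 and N229. Array weights (background 14.9%) and a random block (background 15.7%) each gave 31 (40.3%). Without the block 10 members were higher at that threshold (background 8.02%). With it, they were 15 of 48 large subunit and 11 of 29 small subunit genes. The lowest adjusted p of a member was 0.0654, for Mrpl42.

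The direction was shared by the pairs more often than its size. Of the 77 genes 39 were higher in the TIC array of all 4 pairs (50.6%, background 23.2%), and 0 were lower in all 4 (background 11.8%). Another 29 genes were higher in 3 pairs and 9 in 2. All 4 TIC arrays lay above all 4 CD24- arrays for 8 genes (10.4%, background 5.19%), namely Mrpl18, Mrpl34, Mrpl39, Mrps11, Mrps23, Mrps33, Mrps35 and Mrps36. For 0 genes did all TIC arrays lie below (background 4.68%).

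Brighter genes as a whole were higher in the TIC fraction, and most members were bright. In a comparison added after the data were seen, 69.2% of the genes at or above the median level had a difference above 0, 34.4% were higher in all 4 pairs and the median was 0.11. The 70 members in that class had 94.3%, 45.7% and a median of 0.20, 0.09 above the median of the class. At an unadjusted p under 0.05, 31.4% of these 70 were higher, against 21.5% of the class. When the fit was run on the class alone, these shares were 25.7% and 19.1%. The 7 members below the median level were all higher in all 4 pairs, with a median of 0.25, where the other class had a median of -0.00073.

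The members' shift was largest in N251 and smallest in the pool of N222 and N229. In N251 69 of 77 genes were higher in the TIC array, with medians of 0.42 for the large and 0.31 for the small subunit. In N260 73 were higher, with medians of 0.25 and 0.20, and in N283 64, with medians of 0.15 and 0.17. In the pool 55 were higher, with medians of 0.07 and 0.04. The corresponding medians of all genes were 0.07, 0.08, 0.01 and 0.01. The large subunit exceeded the small by 0.11 in N251 but by 0.03 or less in size in the pool and in N283, where the small subunit was ahead by 0.02 (large minus small -0.02). The difference between the subunits was not tested.

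**Figure D2:**
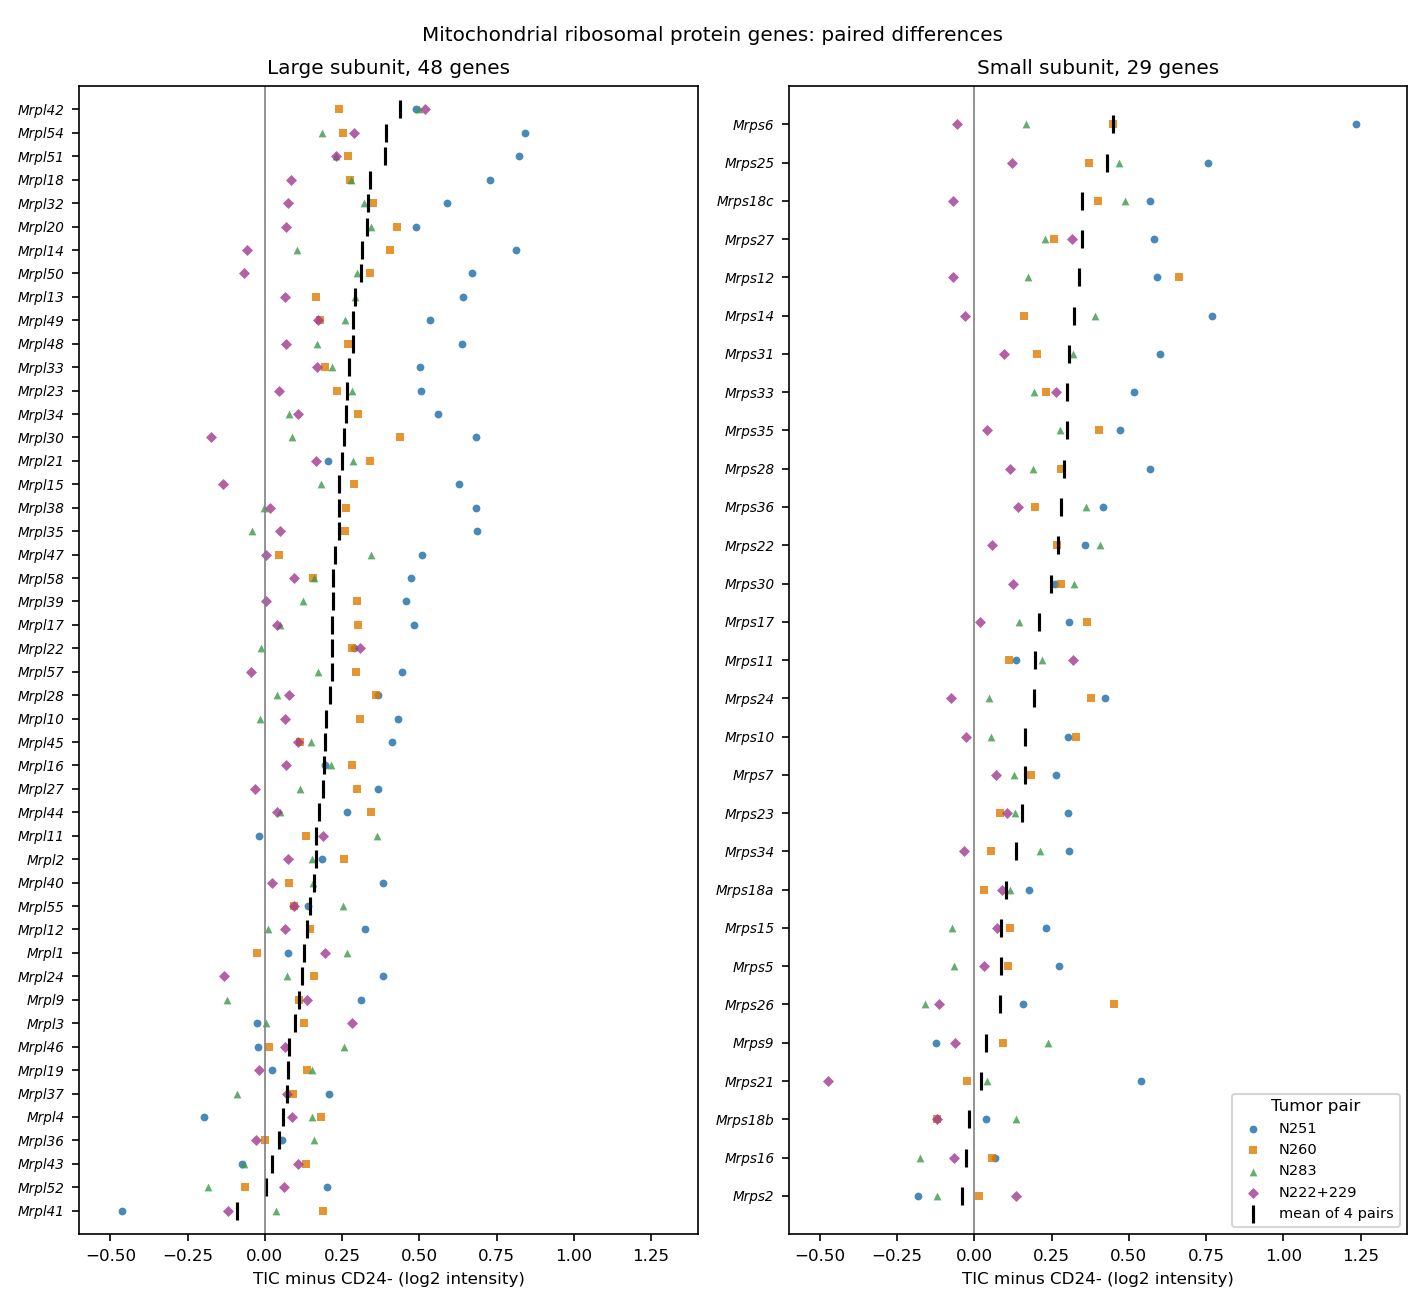
TIC minus CD24- difference (x axis, log2 intensity) of each gene (y axis, sorted by the mean) in the 4 tumor pairs (coloured symbols), with the mean of the pairs as a black bar, for the large (left) and small subunit (right). The N251 symbols reach furthest right (Mrps6 at 1.24), and the pool has the lowest median of the pairs and the lowest single value (Mrps21 at -0.47).

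The levels behind these differences show which arrays were low. Averaged over the 48 large subunit genes, the CD24- arrays stood at 8.504 (N251), 8.786 (N260), 8.849 (N283) and 8.817 (pool). The TIC arrays stood at 8.877, 9.001, 8.995 and 8.891 in the same order. The TIC mean was 8.94 ± 0.07 (SD, n = 4) and the CD24- mean 8.74 ± 0.16, and all 4 TIC means lay above all 4 CD24- means. The CD24- array of N251 was the lowest by far. For the small subunit the CD24- arrays stood at 8.25, 8.50, 8.55 and 8.46, and the TIC arrays at 8.62, 8.72, 8.72 and 8.50. Here the groups overlapped, since the TIC array of the pool lay below the CD24- array of N283. The mean over all genes ran only from 7.52 to 7.58. Gene by gene, however, the N251 CD24- array deviated most from its fraction's mean over all genes. Its mean absolute deviation was 0.27, against 0.13, 0.15 and 0.24 for N260, N283 and the pool. Of the 77 genes 52 had their lowest CD24- value in N251, where 29% of all genes did. The SD between arrays was larger in the CD24- fraction for 53 of the 77 genes (68.8%, against 65.3% of all genes).

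**Figure D3:**
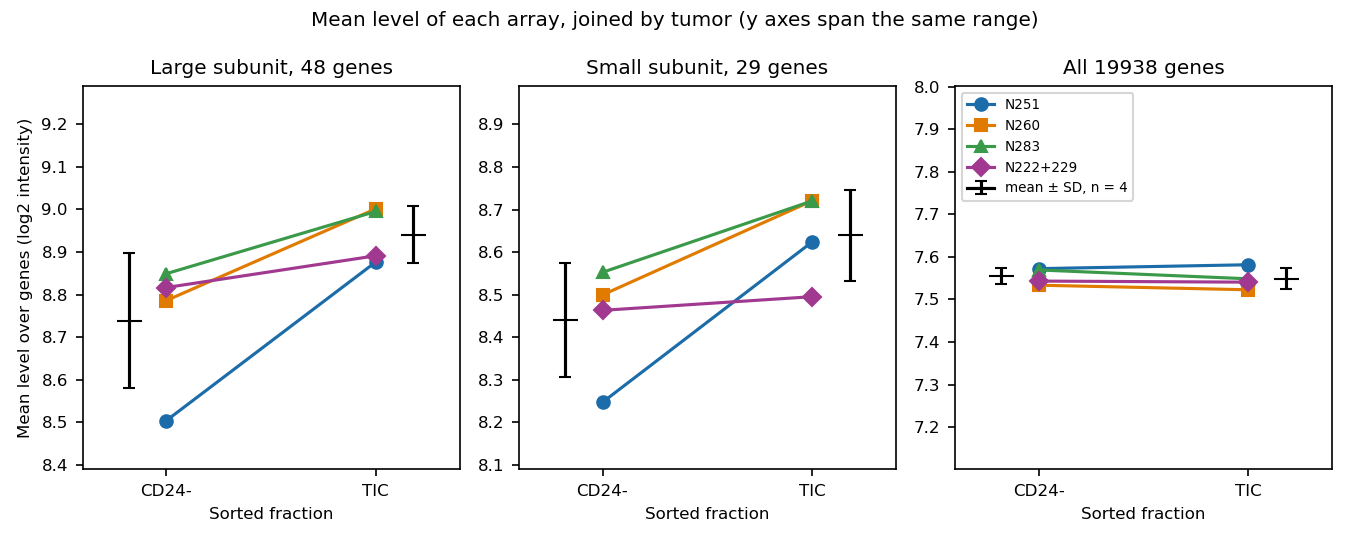
Mean log2 intensity over genes (y axis) in each sorted fraction (x axis), for the large subunit, the small subunit and all genes, with lines joining the 2 arrays of a tumor and black bars giving the mean ± SD (n = 4). The N251 line climbs from 8.50 to 8.88 in the large subunit, whereas the all-genes panel is nearly flat.

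Among large subunit genes the firmest difference was that of Mrpl42, a protein with no bacterial counterpart. Its level was 7.003, 7.23, 7.52 and 7.47 in the TIC arrays of N251, N260, N283 and the pool, and 6.51, 6.99, 7.03 and 6.95 in the CD24- arrays. Each TIC array exceeded its partner by 0.24 to 0.52, although the N251 TIC array lay below the N283 CD24- array, so that the groups overlapped. The difference of 0.44 ± 0.08 (SE), or 1.35-fold, had an adjusted p of 0.0654 and was not called. It was called after median centring (adjusted p = 0.0449) and with array weights (adjusted p = 0.0481), whereas without the block the adjusted p was 0.26. Mrpl42 was the one member whose call depended on the setting in this way.

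Mrpl54 and Mrpl51, also specific to mitochondria, had the next largest differences of the large subunit. Mrpl54 was at 9.23, 9.16, 9.33 and 8.92 in the TIC arrays and 8.39, 8.91, 9.14 and 8.63 in the CD24- arrays. Its difference was 0.39 ± 0.13 (adjusted p = 0.166), with 0.84 in N251 and 0.18 to 0.29 in the others. Mrpl51 differed by 0.39 ± 0.12 (adjusted p = 0.161), again with its largest value, 0.82, in N251. Both were higher in all 4 pairs, and in both the groups overlapped.

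The members of bacterial families with the smallest p-values were Mrpl20, Mrpl21 and Mrpl32. Mrpl20, whose bacterial relative binds ribosomal RNA early in assembly, differed by 0.33 ± 0.09 (adjusted p = 0.135). Mrpl21 differed by 0.25 ± 0.07 (adjusted p = 0.139) and was the most even of these, from 0.16 in the pool to 0.34 in N260. Mrpl32, which matures by cleavage in the mitochondrial matrix, differed by 0.33 ± 0.10 (adjusted p = 0.149). Its CD24- arrays stood at 7.65, 8.03, 8.04 and 8.60 and its TIC arrays at 8.24, 8.38, 8.36 and 8.68. The pool was high in both fractions, and the groups overlapped. Mrpl49, specific to mitochondria, differed by 0.29 ± 0.09 (adjusted p = 0.158). These 4 were higher in all 4 pairs.

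Members of families with a known place in the ribosome were not called either. Mrpl12, of the stalk that recruits translation factors, differed by 0.14 ± 0.08 (adjusted p = 0.379). Mrpl23, of the family at the exit of the nascent chain, differed by 0.27 ± 0.09 (adjusted p = 0.188), and Mrpl27, of the family near the peptidyl transferase centre, by 0.19 ± 0.09 (adjusted p = 0.296). Mrpl14 and Mrpl30 had the largest spread between pairs in the large subunit (SD 0.38 for both), with 0.81 and 0.68 in N251 but -0.06 and -0.18 in the pool. At the low end, Mrpl43 differed by 0.02, Mrpl52 by 0.0034 and Mrpl41 by -0.09 ± 0.12 (adjusted p = 0.711). Mrpl41 was the one large subunit gene with a mean below 0, and it rested on N251, where the CD24- array stood at 8.50 and the TIC array at 8.04. Without N251 its difference was 0.04. Mrpl43 and Mrpl52 turned below 0 after cyclic loess and quantile scaling.

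In the small subunit Mrps27, an RNA-binding protein of the pentatricopeptide family, had the smallest p-value. It stood at 7.26, 7.34, 7.36 and 7.97 in the TIC arrays and at 6.68, 7.09, 7.13 and 7.65 in the CD24- arrays. Each TIC array exceeded its partner by 0.23 to 0.58, and the groups overlapped because both arrays of the pool were high. The difference was 0.35 ± 0.09 (adjusted p = 0.114, and 0.527 without the block). Mrps25, specific to mitochondria, differed by 0.43 ± 0.12 (adjusted p = 0.126), with 0.76 in N251 and 0.12 in the pool.

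Mrps33, Mrps36 and Mrps30 followed. Mrps33 stood at 8.91, 8.99, 9.03 and 9.08 in the TIC arrays and at 8.40, 8.75, 8.84 and 8.82 in the CD24- arrays, with no overlap (0.30 ± 0.08, adjusted p = 0.133). Mrps36, now assigned to the 2-oxoglutarate dehydrogenase complex rather than the ribosome, differed by 0.28 ± 0.08 (adjusted p = 0.141) and also did not overlap. Mrps30, named for the small subunit but placed in the large one by structures of the ribosome, differed by 0.25 ± 0.07 (adjusted p = 0.144), from 0.13 to 0.32 over the pairs. All 3 were higher in all 4 pairs.

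Mrps6 had the highest mean difference of all members, and N251 set it. It stood at 10.26, 10.34, 10.18 and 10.15 in the TIC arrays and at 9.03, 9.89, 10.01 and 10.21 in the CD24- arrays. The difference was 1.24 (N251), 0.45 (N260), 0.17 (N283) and -0.06 (pool), with a mean of 0.45 ± 0.21 (adjusted p = 0.28). Mrps21 had the next largest spread, from 0.54 in N251 to -0.47 in the pool (mean 0.02, adjusted p = 0.961). Both belong to families with bacterial relatives.

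The 3 genes of the S18 family differed from each other in size. Mrps18c, placed in the small subunit, had 0.57, 0.40, 0.49 and -0.07 in N251, N260, N283 and the pool (mean 0.35 ± 0.12, adjusted p = 0.186). Mrps18a, placed in the large subunit by structures, had a mean of 0.10 ± 0.07 (adjusted p = 0.429), and Mrps18b one of -0.02 ± 0.08 (adjusted p = 0.927). The difference between the 3 was not tested. Mrps12, of the family at the decoding centre, differed by 0.34 ± 0.14 (adjusted p = 0.233), with 0.66 in N260 and -0.07 in the pool. At the low end Mrps16 and Mrps2 had -0.03 and -0.04. Mrps2, Mrps16 and Mrps18b turned above 0 after median centring.

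Grouped by origin, the median difference was above 0 in each class, and the small subunit genes of bacterial families were nearest to all genes. The 30 large subunit genes of bacterial families had a median difference of 0.21 and were all above 0, and the 18 specific to mitochondria had 0.22, with Mrpl41 alone below 0. The 18 small subunit genes of bacterial families had a median of 0.16 with 3 below 0, namely Mrps2, Mrps16 and Mrps18b. The 11 specific to mitochondria had 0.28 with 0 below 0, and 9 of these 11 were higher in all 4 pairs. Of the 18, 5 were (27.8%, background 23.2%), 3 were higher at an unadjusted p under 0.05 (16.7%, background 14.2%), and their median in the pool was -0.03. These classes follow the gene names. The 11 thus include Mrps36, whose 0.28 is the class median, and Mrps30, and the 18 of the small subunit include Mrps18a. All 3 are placed outside the small subunit above. The contrast between the classes was not tested.

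Of the 8 genes with more than 1 row, 7 had the mean differences of both rows on the same side of 0 and within 0.06 of each other. Mrpl51 gave 0.39 and 0.41, Mrps33 0.30 and 0.31, Mrps36 0.28 and 0.28, Mrpl23 0.27 and 0.26, Mrpl27 0.19 and 0.24, Mrps5 0.09 and 0.12 and Mrpl41 -0.09 and -0.12. In single pairs the rows of some of these had opposite signs. Those of Mrps5 gave -0.07 and 0.27 in N283 and 0.03 and -0.21 in the pool of N222 and N229. Those of Mrpl27 gave -0.03 and 0.18 in the pool, and those of Mrpl41 0.04 and -0.03 in N283. The means of the rows of Mrpl47 differed more, at 0.23 and 0.10, and its rows disagreed most in N260 (0.05 and 0.62). Whether a row also measures a near-identical copy is not known, so the values of these 8 genes are less certain. A further row is annotated with Ccdc142 and Mrpl53 together, was left out, and differed by -0.0036.

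A further 4 proteins of the ribosome that carry other symbols were measured, and 0 were called. Chchd1 differed by 0.39 ± 0.13 (adjusted p = 0.17) and Ptcd3, an RNA-binding protein, by 0.30 ± 0.10 (adjusted p = 0.168). Dap3, a GTP-binding protein of the small subunit, differed by 0.13 (adjusted p = 0.656) and Gadd45gip1 by 0.08 (adjusted p = 0.612). Their direction was that of most members.

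Other lists of mitochondrial gene expression held 0 called genes as well. Of 26 assembly factors 22 were above 0 (median 0.10) and 9 were higher in all 4 pairs, led by Mettl15, a methyltransferase of the small ribosomal RNA (0.42 ± 0.10, adjusted p = 0.102). Of 20 translation factors 19 were above 0 (median 0.14), led by Slirp, which stabilises mitochondrial messages (0.38, adjusted p = 0.152). All 16 aminoacyl-tRNA synthetases of mitochondria were above 0 (median 0.13), led by Pars2, the prolyl enzyme (0.30 ± 0.07, adjusted p = 0.0999, and 0.029 with a random block). Of 11 genes of mitochondrial DNA transcription and replication 10 were above 0 (median 0.17), led by Ssbp1, which coats single-stranded mitochondrial DNA (0.38 ± 0.09, adjusted p = 0.0929, and 0.0306 with a random block). The medians of these lists lie between those of the members and of all genes. Most of their genes were at or above the median level (23 of 26, 16 of 20, 16 of 16 and 9 of 11). All genes in that class had a median of 0.11, and 34.4% were higher in all 4 pairs. The assembly factors, with 0.10 and 34.6%, were close to that class.

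Of the 10 regulators of mitochondrial biogenesis 6 were above 0, with a median of 0.03, close to the 0.04 of all genes. Gabpb1, a subunit of the ETS factor GABP, had the smallest p (0.25 ± 0.09, adjusted p = 0.185). Nrf1 differed by 0.04, Gabpa by 0.07 and Yy1 by -0.0016, and 0 of the 3 were called. Ppargc1a, a coactivator of mitochondrial genes, differed by 0.57 ± 0.28 (adjusted p = 0.292), with 1.69 in N251 and 0.02 in N283. Of the messages that the mitochondrial ribosome translates, the array named COX2, at -0.0019, and ND3, at 0.11, a pair chosen after the annotation was seen (adjusted p = 0.992 and 0.506).

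The nuclear-encoded partners of the mitochondrial translation products had a median near that of the members. Of 78 respiratory chain and ATP synthase subunits 73 were above 0, the median was 0.20 and 0 were called. Cox6a2, the muscle form of a cytochrome oxidase subunit, had the smallest p and was lower in all 4 pairs (-0.37 ± 0.08, adjusted p = 0.0821). Of 60 cytosolic ribosomal protein genes 49 were above 0 with a median of 0.10 and 0 were called. Higher in all 4 pairs were 11 of those 60 (18.3%) and 19 of the 78 (24.4%), shares near or below the 23.2% of all genes. The translation factors (10 of 20) and the aminoacyl-tRNA synthetases (8 of 16) had 50% each, near the members' 50.6%. In the pool the medians were -0.06 for the cytosolic ribosome and -0.04 for the respiratory chain. They were 0.06 for translation factors, 0.10 for synthetases and 0.10 for mitochondrial DNA genes, beside 0.07 and 0.04 for the large and small subunit. Rpl14 had the smallest p of the cytosolic set (0.47, adjusted p = 0.11).

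**Figure D4:**
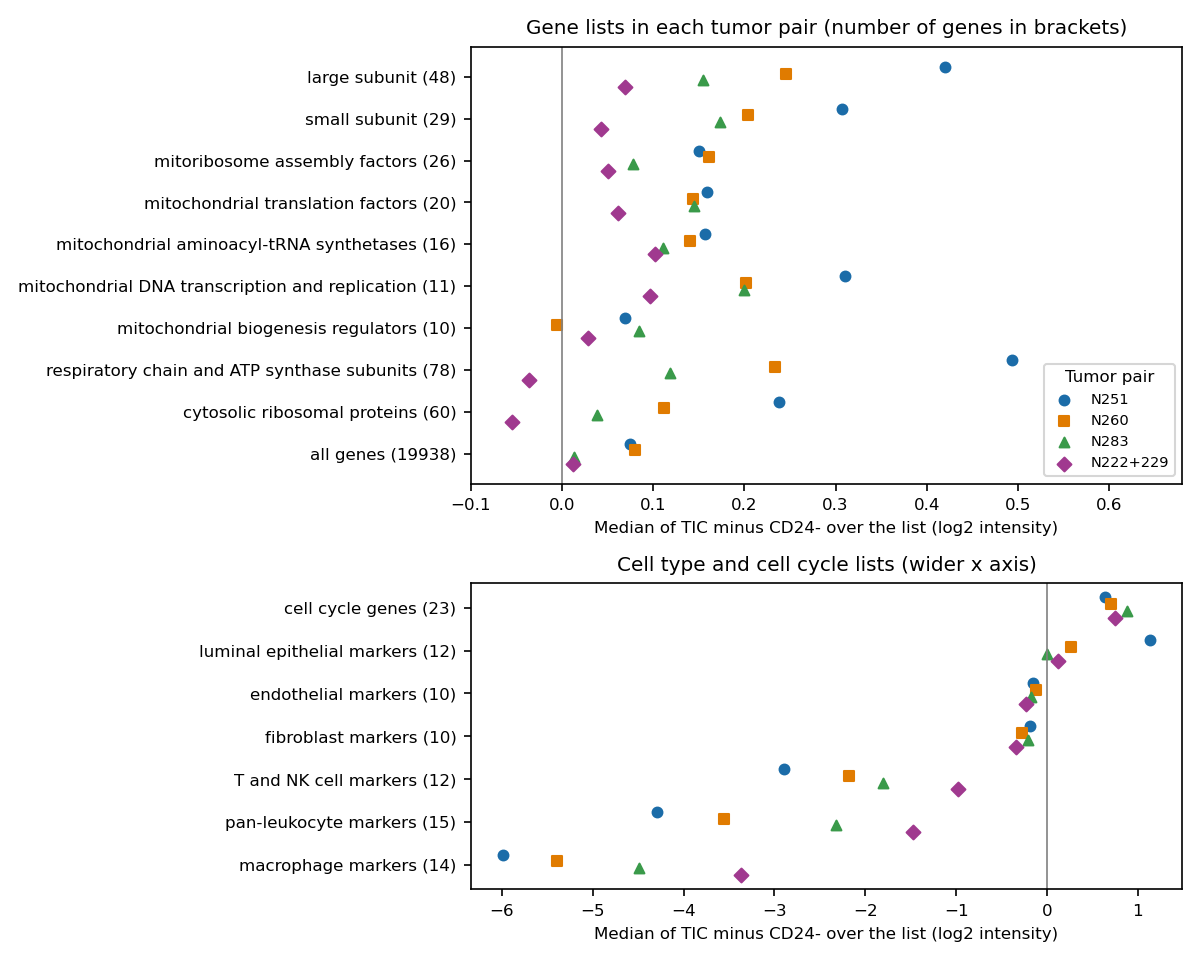
Median TIC minus CD24- difference over each gene list (x axis, log2 intensity, wider in the lower panel) in the 4 tumor pairs (coloured symbols), with the number of genes in brackets. The large subunit runs from 0.07 in the pool to 0.42 in N251, and the macrophage list from -3.37 to -5.99 over the same pairs.

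The medians of the leukocyte lists had the order of the members' shift over the 4 pairs, and so did lists of other genes. In N251, N260, N283 and the pool the respiratory chain list had 0.49, 0.23, 0.12 and -0.04. The cytosolic ribosomal proteins had 0.24, 0.11, 0.04 and -0.06. The median difference of 15 pan-leukocyte markers was -4.29 (N251), -3.56 (N260), -2.33 (N283) and -1.47 (pool), the order in which the members' median fell from 0.38 to 0.24, 0.16 and 0.07. The macrophage list of 14 genes had -5.99, -5.40, -4.49 and -3.37, and the list of 12 T and NK cell genes -2.89, -2.18, -1.80 and -0.98. All genes of the 3 lists had a mean difference below 0. Of them 10, 11 and 3 were called lower, where 1.09% of all genes were, and 0 were called higher. All 3 lists had 0 called without N260, without N283 and with all rows tested. Called genes included Cd53 (-5.50) and Laptm5 (-5.26) among pan-leukocyte markers, Lyz2 (-5.77), Mpeg1 (-5.43) and C1qb (-5.42) among macrophage markers, and Cd3g (-5.62), Gzmb (-4.94) and Gzma (-1.80) among T and NK cell markers. The mean level of the macrophage list was 6.41 to 6.79 in the TIC arrays and 9.61 to 12.1 in the CD24- arrays. Csf1r, the receptor of a macrophage growth factor, was at 6.37 and 11.4 in the respective fractions, and Ptprc, the CD45 antigen, at 5.90 and 10.2 (adjusted p = 0.0189 and 0.0265). In bulk RNA a different share of cell types and a different level per cell cannot be told apart, and the part of the leukocyte content in the members' difference was not tested.

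The medians of the epithelial and stromal lists did not have that order. The 12 luminal markers had medians of 1.13, 0.26, 0.01 and 0.12 in N251, N260, N283 and the pool, with 0 called. Epcam was at 12.1 and 11.7 and Krt8 at 12.7 and 12.3 in the TIC and CD24- fractions, so that the fraction labelled CD24-negative also gave bright epithelial signals. Of 10 fibroblast markers 9 were below 0 and 7 were lower in all 4 pairs (background 11.8%), and the list's median was -0.19. Only 1 was called lower, Thy1 (-1.73, adjusted p = 0.0416), which is also a T cell antigen of the mouse. Its differences had the members' order over the pairs (-2.51, -1.89, -1.61 and -0.90). The list had 0 called without the block, without N260 or N283, among brighter genes only or with all rows tested. Dcn differed by -1.55 (adjusted p = 0.136). Of the 10 endothelial markers 8 were below 0 and 5 were lower in all 4 pairs, with a median of -0.13 and 0 called.

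Cell cycle genes rose in the TIC fraction without following the order of the members' shift. All 23 genes were above 0, with medians of 0.64, 0.70, 0.88 and 0.75 in N251, N260, N283 and the pool. Called higher were 15 (background 0.863%), and 0 were called lower. Without the block, without N260 or without N283, 0 were called. Kif11, a motor of the mitotic spindle, rose by 1.37 (adjusted p = 0.0255), Cdk1, the mitotic kinase, by 1.37 (adjusted p = 0.0189) and Top2a, which untangles chromosomes, by 1.21 (adjusted p = 0.0459). Mki67, the proliferation antigen, rose by 0.72 (adjusted p = 0.0424). The list was largest in N283, where the members' median was 0.16, and smallest in N251, where it was 0.38. The part of cell division in the members' difference was not tested.

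Levels of the members also varied between tumors in a way that both fractions shared. The tumor N251 had the lowest value in both fractions for 23 of the 77 genes (29.9%, where 8.49% of all genes did), 18 of them in the large subunit, and the highest in both for 0 (19% of all genes). N283 had the highest in both for 11 genes (14.3%, where 6.93% of all genes did). The pool was lowest in both for 17 genes (22.1%, against 21.1% of all genes) and highest in both for 18 (23.4%, against 19.9%), shares near those of all genes.

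Several genes set the pool apart in both fractions, though not all did so, as Mrps21 was higher there by 0.74 in the CD24- fraction and 0.08 in the TIC fraction. Mrpl2 was at 7.87 in the pool's TIC array and at 8.63 to 8.72 in the other TIC arrays, and at 7.80 in its CD24- array against 8.46 to 8.48. Mrps18a differed from the mean of the other tumors by -0.58 (TIC) and -0.56 (CD24-). Mrps27 was higher by 0.65 and 0.69, and Mrpl1 by 0.58 and 0.49. Across the 77 genes, which are not independent, the deviation of the pool from its fraction mean correlated at 0.82 between the fractions, against 0.38 in N251, 0.55 in N260 and 0.53 in N283. Over all genes the pool was highest too, at 0.56, against 0.32, 0.43 and 0.30.

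**Figure D5:**
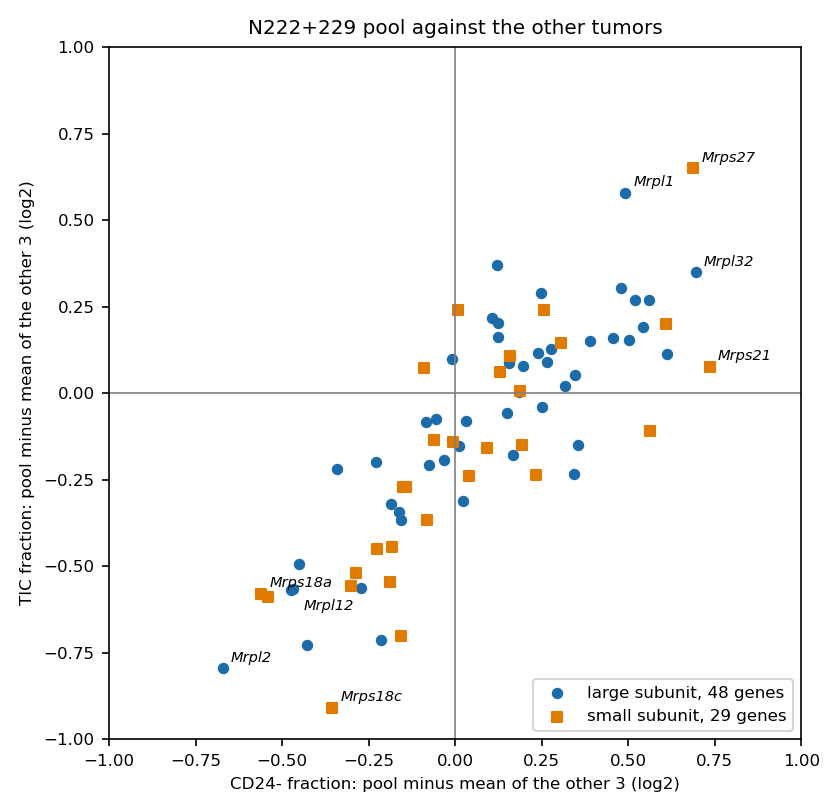
Level in the pool of N222 and N229 minus the mean of the other 3 tumors (log2), in the CD24- fraction (x axis) and the TIC fraction (y axis), for each gene of the large (blue circles) and small subunit (orange squares). Mrpl2 lies at -0.67 and -0.80, Mrps27 at 0.69 and 0.65, and 30 genes lie below 0 in both fractions.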

How the data were processed

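Each of the 8 RNA samples had 1 array. The authors deposited log2 values from RMA and Partek, per the submitters' processing notes; versions and build are not given in the sources. They ran from 1.76 to 14.6, with array medians of 7.03 to 7.18. No pair of arrays was duplicated (highest correlation 0.991). Precision is limited by the number of arrays.

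Of 35556 rows 21789 had 1 symbol in the platform annotation, 1621 several and 12146 none. Symbols were checked by gene identifier against RefSeq (GRCm38.p6), which held all 77 members and renamed 0. The brightest row per gene left 19938 genes. Differences (TIC minus CD24-) came from lmFit and eBayes (limma 3.58.1, R 4.3.3) with the tumor as a block, and adjusted p-values are Benjamini-Hochberg over all genes. Titles give the pairing, and deviations of paired arrays from their fraction means correlated at 0.32, 0.43, 0.30 and 0.56 over all genes. The titles name N251 and N260 where the growth protocol has N250 and N261, and titles were followed. Nothing says that the tumors came from separate animals, so p-values measure the spread between these samples.

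The members and lists were chosen with earlier results of these data known, so lists have no test, only counts and medians. Members were named if they had one of the 5 smallest p-values, 3 highest or 3 lowest differences or 2 largest spreads in their subunit, more than 1 row, or a place in a set list of 7. Members printed for other reasons were chosen after their values were seen. In each other list the member with the smallest p, or up to 3 called ones per direction, were named, and a few markers. Fits were tested on simulated data with planted differences larger than the mean difference of any member, so differences of the members' size were not covered. Alternatives covered the block, scalings, filters, thresholds and leaving out each pair.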

Additional observations from a re-analysis of the deposited data

Results flagged for a closer look

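An array set apart from its fraction's other 3 was found in 9 of 64 groups of values (30 named members and both subunit means in each fraction). Chance alone gives about 1 in 20 for unselected, independent groups, but these genes were named partly for their spread and share arrays, so that no chance count applies. Of the 9, 7 were the TIC array of the N222 and N229 pool. Over all genes that array also deviated most from the TIC mean. Its mean absolute deviation was 0.18, against 0.12, 0.11 and 0.11 for the TIC arrays of N251, N260 and N283. The pool's TIC array was low for Mrpl14 (8.69, others 9.37 to 9.42), Mrpl27 (8.80, others 9.33 to 9.42), Mrpl41 (7.57, others 8.04 to 8.09), Mrps12 (7.95, others 8.62 to 8.68), Mrps16 (8.36, others 8.91 to 8.998) and Mrps18a (8.82, others 9.35 to 9.44). It was high for Mrps27 (7.97, others 7.26 to 7.36). In the CD24- fraction the N251 array was low for Mrpl42 (6.51, others 6.95 to 7.03), and the N283 array was high for Mrps12 (8.51, others 8.00 to 8.03).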

How the results depend on the processing

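Of 16 alternatives 9 altered the differences themselves, and under these 21 of the 30 members named by rule kept their sign; the others altered only the test or the set of genes tested. The count of members called higher was 0 except for 1, Mrpl42, with array weights, after median centring and at an adjusted p under 0.10, and the count called lower was 0 throughout. The median differences stayed within 1 SD over the pairs, from 0.13 (cyclic loess) to 0.26 in the large and from 0.14 to 0.27 in the small subunit. Without N251 they were 0.14 and 0.17. Restricting to the brighter genes raised the median of all genes from 0.04 to 0.11.

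The count of all genes called, 390 with the replicate block, was 158 with no replicate block, 1036 with a random replicate block, 151 for brighter genes only, 1017 with array weights, 2 with all rows tested, 0 at an adjusted p under 0.01 and 1160 at one under 0.10. Leaving out a pair gave 0 (N260 or N283) to 840 (N251). Without N260 or N283, 15 called cell cycle genes became 0.

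Genes near 0 changed sign, none of them called. With array weights these were Mrpl41 (0.011), Mrpl52 (-0.044) and Mrps21 (-0.059), and after median centring Mrps16 (0.019), Mrps18b (0.030) and Mrps2 (0.0086). After cyclic loess they were Mrpl43 (-0.068), Mrpl52 (-0.10), Mrps18a (-0.00083), Mrps21 (-0.068) and Mrps5 (-0.00090), and after quantile normalization Mrpl43 (-0.011), Mrpl52 (-0.040) and Mrps21 (-0.014). Leaving out a pair gave -0.18 to 0.035 for Mrpl41, -0.062 to 0.065 for Mrpl52, -0.10 to 0.0091 for Mrps2, -0.15 to 0.19 for Mrps21, -0.012 to 0.057 for Mrpl43, -0.068 to 0.018 for Mrps18b and -0.060 to 0.020 for Mrps16. The cause of these changes was not tested.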

Other observations

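By chromosome, in the RefSeq build GRCm38.p6, members on chromosome 17 were low in the N222 and N229 pool. They were Mrpl2, Mrpl14, Mrpl18, Mrpl28, Mrps10, Mrps18a and Mrps18b, with a median of -0.56 (TIC) and -0.21 (CD24-) against the other tumors, and 5 of the 7 were lower in both. All 770 measured genes placed on that chromosome had medians of -0.06 and -0.06. On chromosome 6 the 4 members Mrpl35, Mrpl51, Mrps25 and Mrps33 had 0.15 and 0.34, beside -0.02 and -0.02 for the 912 genes there. The chromosomes were looked at after the values of the pool were seen, and no test was made.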
